A study of Homo sapiens with 4 samples.

Results

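The desmosome genes described here are DSG1, DSG2, DSG3, DSC2, DSC3, DSP, PKP1, PKP2, PKP3 and JUP, 10 of the 43305 gene names on the array, chosen by name and represented by all 14 of their probes. Gene expression was measured in 2 HNSCC lines, cultured squamous cell carcinoma cells of the head and neck named HN4 and HN30, and in their cisplatin-resistant derivatives HN4/DDP and HN30/DDP, to find the genes that differ once a line has become resistant. HN4/DDP and HN30/DDP were derived by stepwise raising of the cisplatin dose and were kept in 20 μM cisplatin, for which the labels, where these lines are called HN4_CR and HN30_CR, add a time of 48 h, whereas no drug is given for the parental lines. A difference between a resistant and a parental array therefore holds both the selection and the drug in the medium, which cannot be told apart. Each condition was measured on 1 one-colour Agilent array, and no independent second derivation of either resistant line was measured.

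Desmosomes are the spot-like junctions that fasten epithelial cells to each other and tie their keratin filaments together across the tissue. The desmogleins (DSG) and desmocollins (DSC) are the cadherins that span the membrane and bind their partners on the next cell. Plakoglobin (JUP) and the plakophilins (PKP) are armadillo proteins that bind the cadherin tails, and desmoplakin (DSP) links them to keratin. DSG2 and DSC2 are found in nearly all tissues with desmosomes. In the epidermis DSG3 and DSC3 belong to the lower layers, and DSG1 with DSC1 to the upper, differentiated layers.

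The 5 cadherin genes measured here lie in 1 cluster on chromosome 18. Their probes span 555.5 kb on hg19, in the order DSC3, DSC2, DSG1, DSG3 and DSG2, with DSC1 between DSC2 and DSG1 and DSG4 between DSG1 and DSG3. The following 60-base probes are shown, 5′ to 3′ on the transcript's strand, because the results turn on DSC3 and because DSC2 and DSG2 are the related cadherins against which it stands. The DSC3 probe shown, called the second below, lies at chr18:28576935-28576994 on the minus strand, the DSC2 probe spans an intron within chr18:28650796-28651609 on the minus strand, and the DSG2 probe lies at chr18:29126460-29126519 on the plus strand.
DSC3: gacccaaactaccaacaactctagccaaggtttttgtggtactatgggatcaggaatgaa
DSC2: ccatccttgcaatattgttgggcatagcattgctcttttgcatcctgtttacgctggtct
DSG2: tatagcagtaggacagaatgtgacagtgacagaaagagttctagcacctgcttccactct
The first DSC3 probe, which represents the gene, lies at chr18:28571035-28571094, DSG3 was read at chr18:29058356-29058415 and DSG1 at chr18:28937335-28937394. Among the 87 pairs of probes of different members, the longest run of bases that 2 probes shared was 9. The 2 PKP1 probes overlap and count as 1 measurement of that gene.

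The level of a probe is given as log2 of its background-subtracted signal minus log2 of the array's 75th percentile signal, so that 0 is the level of a probe brighter than 75% of the probes. The 75th percentile lay between 444.4 and 496.1 signal units, between 55.3% and 63.6% of the probes were well above background, and no spot was saturated. The lowest level marked as well above background was between -4.99 and -4.63. The error given is the scanner's own SD for a spot, which covers the reading of 1 array and not the spread between cultures. Markers of squamous epithelium were present on all 4 arrays, and all 8 were well above background with the exception of KRT6A on HN30/DDP, while the fibroblast genes COL1A2, COL3A1, DCN and LUM were not well above background on any array. Some markers of other cell types moved in HN30/DDP. CD14, a monocyte marker, went from 1560 in HN30 to 18900. The summed signal of the cardiac list reached 386 through TNNT2 (331 in HN30/DDP against 66.8 in HN30), with MYH7 and ACTN2 not well above background, and the fibroblast list from 99.5 to 370 through COL1A1. In HN4/DDP the fibroblast list went from 195 to 510 and the endothelial list from 127 to 154, with VWF at 99.4 and PECAM1 at 4.33, the latter not well above background. Their part in the results was not tested.

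DSC3, the desmocollin of the lower epidermal layers, had the largest difference of the desmosome genes in HN4/DDP. By its first probe it was 7.75-fold lower in HN4/DDP than in HN4 and 2.18-fold higher in HN30/DDP than in HN30. With the processing, its log2 difference of -2.95 in HN4/DDP ranged from -3.10 to -1.83. That of 1.12 in HN30/DDP ranged from 0.63 to 1.23. DSG3, a desmoglein of the same layers of the epidermis, was 3.58-fold higher in HN4/DDP. The other 7 members that were well above background on every array (DSG2, DSC2, JUP, PKP1, PKP2, PKP3 and DSP) differed by at most 1.99-fold in HN4/DDP and at most 1.92-fold in HN30/DDP. With other processing, the log2 difference in HN30/DDP reached 1.22 for JUP with the deposited values and -1.34 for PKP3 with median scaling. DSG1 was well above background on the HN30/DDP array only. Fewer cells expressing a gene and less of its RNA in each cell cannot be told apart in such bulk samples.

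**Figure D1:**
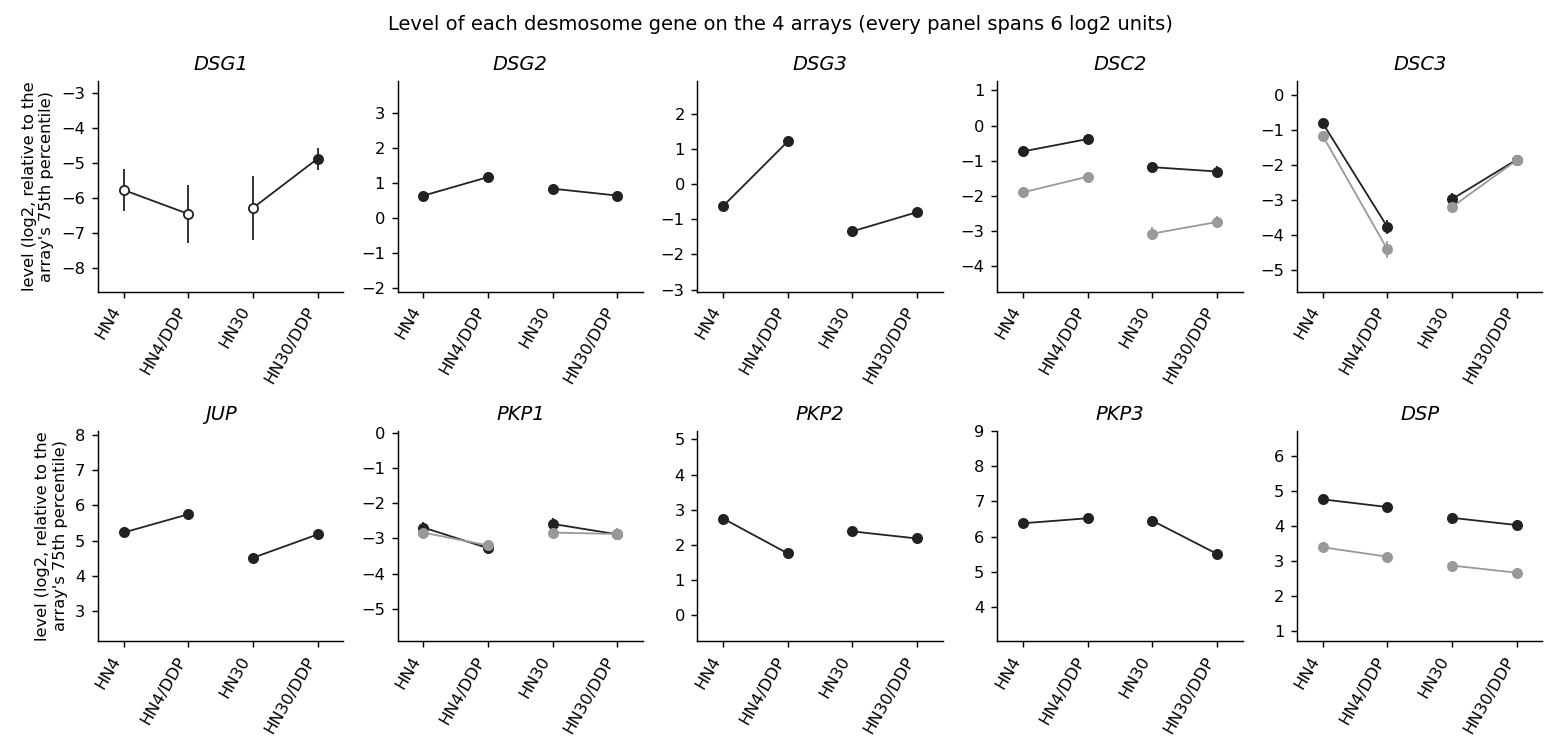
Level of each desmosome gene on the HN4, HN4/DDP, HN30 and HN30/DDP arrays (log2 relative to the array's 75th percentile; bars, scanner SD; lines join a parental array and its resistant array; grey, second probe of a gene; open circles, not well above background). DSC3 is low on HN4/DDP with both probes and DSG3 is high there, while DSP, PKP1 and DSG2 stay within 1 log2 unit on all arrays; levels of different probes are not comparable.

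For DSC3, the probe of transcript NM_024423 gave signals of 281 in HN4 against 36.4 in HN4/DDP, and of 56.5 in HN30 against 133 in HN30/DDP. These correspond to levels of -0.81, -3.77, -2.98 and -1.85. HN4 was the highest array, followed by HN30/DDP, HN30 and HN4/DDP, and no neighbours in this order lay within 2 scanner SDs of each other. The difference was -2.95 (scanner SD 0.241) in HN4/DDP and 1.12 (scanner SD 0.227) in HN30/DDP. The second probe, whose sequence is printed above, gave 219, 23.4, 48.4 and 131 in the same order of arrays. Its differences were -3.24 in HN4/DDP and 1.33 in HN30/DDP, so both probes placed the arrays in the same order. The parental lines already differed, with DSC3 4.48-fold lower in HN30 than in HN4. The order of the resistant lines was the opposite one, with DSC3 3.77-fold higher in HN30/DDP than in HN4/DDP.

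The difference of DSC3 in HN4/DDP was the only one of a desmosome gene past a log2 difference of 2, the threshold of the study. With normexp background correction it was -1.83, and no member passed. Of the 26853 genes that 1 or both arrays of this pair measured well above background, 2.2% were lower past that threshold and 3.61% were higher. Among the 9 members 1 was lower and 0 were higher, and 1 gene is too few to describe the group. Within all genes, 1.02% had a lower difference than DSC3. In HN30/DDP no member passed a log2 difference of 2, against 8.37% of 28330 genes that were higher and 2.75% that were lower. Past a log2 difference of 1, DSC3 was higher in HN30/DDP and no member was lower, out of 9 members well above background on both arrays; over the 23245 genes of that kind, chosen as a filter after the data were seen, 13.6% were higher and 14.2% lower. The measured difference of DSG1 also exceeded 1, but it was dim in HN30 and has no bound, so it is not counted here; with genes dim on 1 array included the backgrounds were 19.8% and 13.3%. DSC3 dropped below 1 in HN30/DDP with normexp (0.63), quantile normalization (0.75), median scaling (0.72), the deposited values (0.73) and a pseudocount of 16 (0.93). Conversely PKP3 was lower past 1 with median scaling (-1.34), and JUP higher past 1 with quantile normalization and the deposited values (1.22 in the latter). In HN4/DDP at that threshold DSG3 was higher and DSC3 lower, against backgrounds of 9.31% and 8.65%. A gene lower in HN4/DDP and higher in HN30/DDP past a log2 difference of 1 was found for 1 of 9 members (DSC3, a call that the same settings end) and for 1.1% of the 22149 genes well above background on all arrays; past a log2 difference of 2 it was found for 0.0632% of them and for no member. Between the parental lines, DSC3 was the only member past a log2 difference of 2, against a background of 1.9% lower and 0.904% higher in HN30. By the probe of highest mean it was also the only one past a log2 difference of 1, where the backgrounds were 7.08% and 3.32%.

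**Figure D2:**
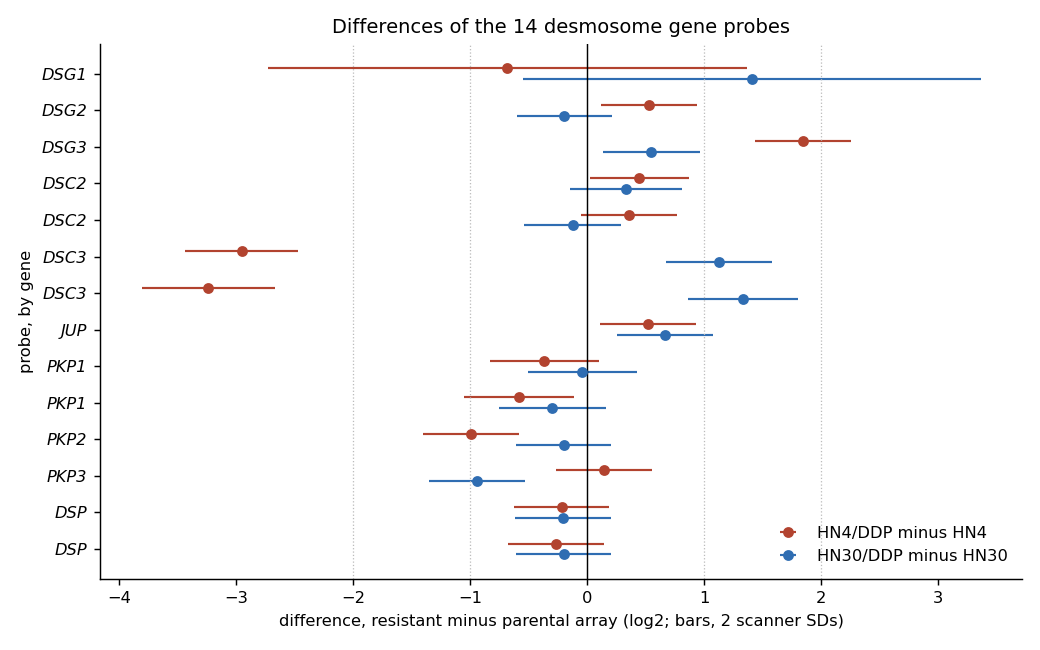
Difference between the resistant and the parental array for each of the 14 probes (log2; red, HN4/DDP minus HN4; blue, HN30/DDP minus HN30; bars, 2 scanner SDs; dotted lines, differences of 1 and 2 in each direction). Both DSC3 probes lie near -3 in HN4/DDP and above 1 in HN30/DDP, DSG3 lies at 1.84 in HN4/DDP, and the bars of DSG1, a dim probe, cross 0.

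The desmogleins differed among themselves. The DSG3 probe gave 322 in HN4 against 1160 in HN4/DDP, and 175 in HN30 against 276 in HN30/DDP. HN4/DDP was the highest array, HN4 and HN30/DDP lay within 2 scanner SDs of each other, and HN30 was the lowest. The difference of DSG3 was 1.84 (scanner SD 0.205) in HN4/DDP and 0.55 (scanner SD 0.207) in HN30/DDP, a 1.46-fold higher level. The latter lay within 2 scanner SDs with normexp (0.35), quantile normalization (0.35), the deposited values (0.35) and median scaling (0.15). In HN4/DDP 4.06% of all genes had a higher difference. DSG2, the desmoglein found in nearly all tissues with desmosomes, gave 766, 1110, 790 and 744 in the same order. Its difference of 0.53 in HN4/DDP exceeded 2 scanner SDs and that of -0.20 in HN30/DDP did not (scanner SD 0.204 each), while each array lay within 2 scanner SDs of its neighbour in the order of the levels. The DSG1 probe gave 9.02, 5.64, 5.69 and 16.2, of which only the value in HN30/DDP was well above background. The lowest level that counts as well above background in HN30 is above the DSG1 level of HN30/DDP, so no fold is given for this gene.

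The 2 cadherins with the largest differences in HN4/DDP went in opposite directions, and the difference of DSG3 exceeded that of DSC3 by 4.79 log2 units (scanner SD 0.316), a 27.7-fold shift of their ratio (10.8-fold with normexp). In HN30/DDP the same quantity was -0.58 (scanner SD 0.307), which is within 2 scanner SDs of 0. DSC2, the widely expressed desmocollin, gave 297 in HN4 against 380 in HN4/DDP, and 195 in HN30 against 193 in HN30/DDP. Its difference was 0.35 (scanner SD 0.205) in HN4/DDP and -0.12 (scanner SD 0.207) in HN30/DDP, both within 2 scanner SDs of 0. The ratio of DSC2 to DSC3 was thus 9.89-fold higher in HN4/DDP (4.28-fold with normexp) and 2.38-fold lower in HN30/DDP than in the parental line. The second DSC2 probe, which reads another stretch of the gene, gave 132, 181, 52.6 and 71.3, with differences of 0.45 (scanner SD 0.211), just beyond 2 scanner SDs, and 0.33 (scanner SD 0.24). With that probe the DSC2 signal in HN30 was 2.26-fold lower than in HN4, and with the first 1.37-fold lower, so the direction between the parental lines was the same with both probes and its size was not.

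Among the armadillo proteins, plakoglobin was the member that was higher in both resistant lines. JUP, which occurs in desmosomes and in adherens junctions, gave 18500 in HN4 against 26700 in HN4/DDP, and 10100 in HN30 against 17300 in HN30/DDP. The difference was 0.52 in HN4/DDP and 0.66 in HN30/DDP (scanner SD 0.204 each), or 1.43-fold and 1.58-fold. Both exceeded 2 scanner SDs, but in HN30/DDP the difference was 0.26 with median scaling, within 2 scanner SDs, and 1.22 with the deposited values. HN4 and HN30/DDP lay within 2 scanner SDs of each other. PKP3, a plakophilin that binds most desmosomal cadherins, gave 41100, 45500, 38900 and 21800. Its 3 highest arrays lay close together and HN30/DDP stood below them, with a difference of 0.14 in HN4/DDP and of -0.94 in HN30/DDP, the latter 1.92-fold lower. The HN30/DDP difference was -0.37 with quantile normalization and with the deposited values, within 2 scanner SDs, and -1.34 with median scaling. PKP2, the plakophilin of simple epithelia and heart, gave 3310, 1670, 2310 and 2170. Here HN4/DDP was the low array, 1.99-fold below HN4 (difference -0.99), while the difference in HN30/DDP was -0.20 and within 2 scanner SDs of 0. PKP1, the plakophilin of stratified epithelia, gave 76.5, 51.2, 74.0 and 64.9. Its difference was -0.59 (scanner SD 0.235) in HN4/DDP and -0.30 (scanner SD 0.228) in HN30/DDP. The overlapping second probe gave -0.37 and -0.04. Of these only the -0.59 was beyond 2 scanner SDs. With normexp it was -0.34 and within them, while the HN30/DDP difference of the first probe passed them with quantile normalization (-0.73), the deposited values (-0.72) and median scaling (-0.70).

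DSP, the linker to keratin, gave 13400 in HN4 against 11600 in HN4/DDP, and 8380 in HN30 against 7840 in HN30/DDP. The difference was -0.22 in HN4/DDP and -0.21 in HN30/DDP, both within 2 scanner SDs (scanner SD 0.204), and the second DSP probe gave -0.27 and -0.20. DSP was 1.44-fold lower in HN30 than in HN4, and the same 1.44-fold with the second probe.

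Over the 9 members well above background in the HN4 pair, 5 differences were positive and 4 negative, with a median of 0.14 and a mean of -0.15, against a median of -0.08 over all 26853 genes. Over the 9 members well above background on both arrays of the HN30 pair, 3 were positive and 6 negative, with a median of -0.20, against -0.07 over the 23245 genes of that kind. The direction turned with the scaling, since with quantile normalization and with the deposited values 5 were positive and 4 negative and the median over all 10 members was 0.19, while median scaling put DSG2 (-0.60), DSC2 (-0.53), PKP2 (-0.60) and DSP (-0.61) beyond 2 scanner SDs. With DSG1 included the median was -0.16, against 0.06 over all 28330 genes and -0.11 over the 15028 of them with an NM accession, the class of all members. Of the 9 members, 7 lay within a log2 difference of 1 in HN4/DDP, where 82.0% of all genes did. Of the 9 members measured on both arrays, 8 lay within 1 in HN30/DDP, where 72.2% of such genes did. In neither line did the members share a direction.

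**Figure D3:**
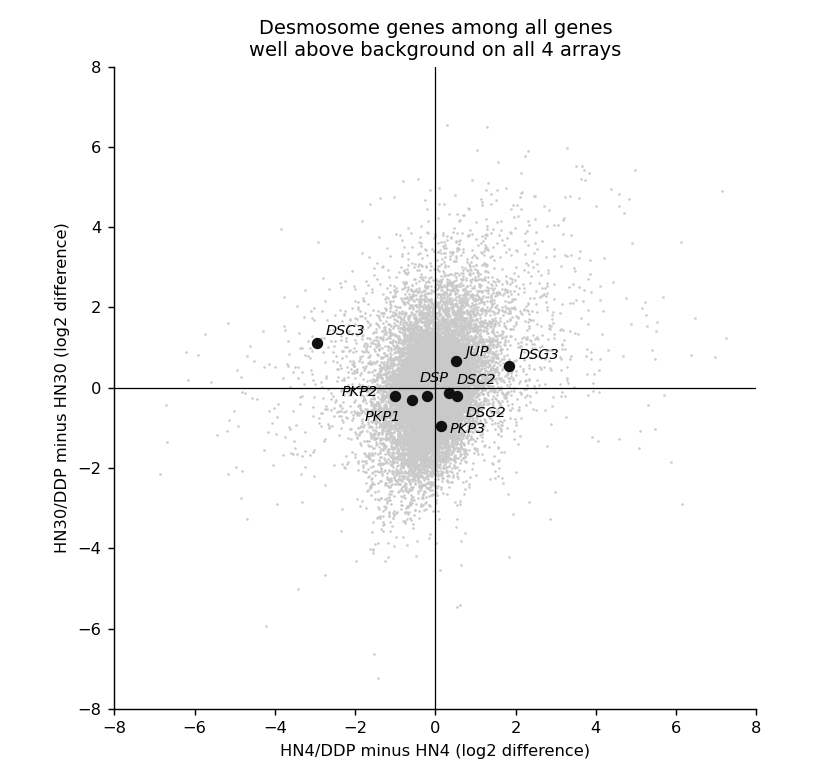
Log2 difference in HN4/DDP (x axis) against that in HN30/DDP (y axis) for the 22149 genes well above background on all 4 arrays (grey points) with the 9 desmosome genes among them in black. DSC3 lies at -2.95 and 1.12, DSG3 at 1.84 and 0.55, and the other 7 lie within 1 log2 unit of 0 on both axes.

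The 1 contrast tested with more than 1 array on each side set both resistant against both parental arrays, with the line of origin as a blocking factor. It leaves 1 residual degree of freedom for each gene. In limma with Benjamini-Hochberg adjustment over 29521 genes, 0 genes had an adjusted p below 0.05, a background of 0.0%, and 2537 (8.59%) had an unadjusted p below 0.05, none of them a desmosome gene. The smallest adjusted p among the members in limma was 0.60, for DSG3, with a mean difference of 1.19 (SE 0.481) that was positive in both lines. DSC3 had a mean difference of -0.92 (SE 1.03) and an adjusted p of 0.842 in limma, with opposite signs in the lines.

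The neighbourhood of the cadherin genes was read by 28 probes from 500 kb before the DSC3 probe to 500 kb beyond the DSG2 probe, 7 of them of members. Among the other 21 probes, 9 were well above background on at least 1 array. DSC1 and DSG4, the remaining cadherins of the cluster, were not well above background on any array, and neither were TTR, DSG2-AS1, lnc-DSG1-1, lnc-B4GALT6-2, lnc-RNF125-3 and 3 unnamed transcripts. B4GALT6, a glycosyltransferase of glycolipid synthesis, was lower in HN4/DDP with 1 of its 2 probes, with 176 in HN4 against 27.5 in HN4/DDP, and 42.3 in HN30 against 44.8 in HN30/DDP. Its difference was -2.69 (scanner SD 0.28) in HN4/DDP and -0.03 (scanner SD 0.258) in HN30/DDP, whereas its other probe was not well above background. DSG2 and DSG3, which lie between B4GALT6 and DSC3, were higher in HN4/DDP. RNF125, a ubiquitin ligase at the far edge of the window, was not well above background in HN4 with either probe. In HN4/DDP its probes were at least 2.93-fold and 3.57-fold higher. In HN30/DDP they differed by 0.38 (scanner SD 0.319) and by 0.89 (scanner SD 0.349), the latter beyond 2 scanner SDs. DSG1-AS1, which lies close to DSG1, gave 66.4, 113, 111 and 33.4 with 1 of its 2 probes, a difference of 0.76 in HN4/DDP and -1.85 in HN30/DDP. Its other probe was not well above background. An unnamed probe (A_33_P3218013) differed by -0.91 and -1.01. Of the rest, lnc-TTR-1 differed by -0.80 and -2.09, DSCAS by -0.35 and -0.19, TRAPPC8 by -0.57 and -0.15, and lnc-RNF125-2 by -0.23 and 0.26 in HN4/DDP and HN30/DDP. The differences in HN4/DDP thus changed sign several times along the window, with DSC3 low, DSC2 0.35 to 0.45 above its parental level, DSG3 high and B4GALT6 low.

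**Figure D4:**
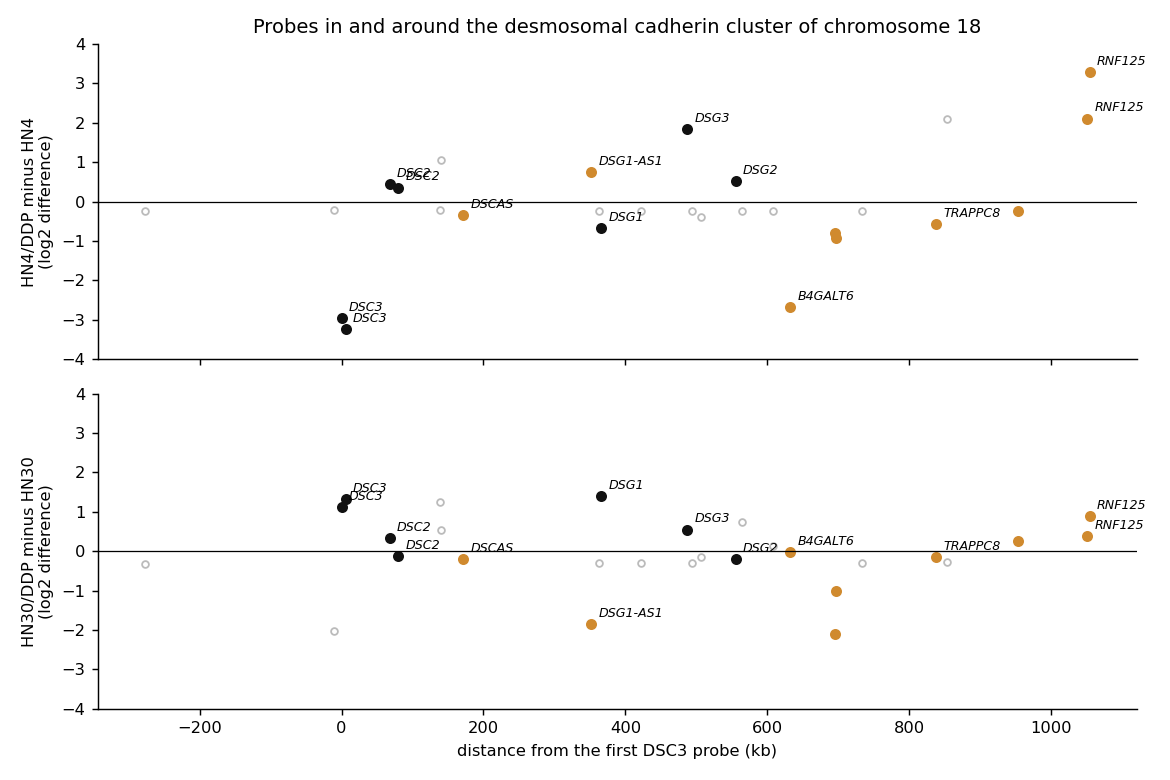
Difference of each probe in the chromosome 18 window (log2, resistant minus parental array) against its distance from the first DSC3 probe in kb, for HN4/DDP (top) and HN30/DDP (bottom). Black points are desmosome genes, orange points other probes well above background on at least 1 array, and open grey points probes that were not; the DSC3 probes are low in the top panel while DSG3, about 487 kb away, is high.

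The start regions of DSC3 and DSG3 are printed because these cadherins of the cluster had the differences farthest apart in HN4/DDP. Each is the 250 bases before the start site in RefSeq (GRCh38.p14), 5′ to 3′ on the strand of the gene, with the CG dinucleotides, which read the same on both strands, in capitals. DSC3 lies at chr18:31042743-31042992 on the minus strand and DSG3 at chr18:31447491-31447740 on the plus strand.
DSC3: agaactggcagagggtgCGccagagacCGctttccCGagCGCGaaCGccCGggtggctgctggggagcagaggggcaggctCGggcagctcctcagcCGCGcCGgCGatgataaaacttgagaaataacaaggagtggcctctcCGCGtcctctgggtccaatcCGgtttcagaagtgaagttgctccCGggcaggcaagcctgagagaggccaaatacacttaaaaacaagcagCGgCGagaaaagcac
DSG3: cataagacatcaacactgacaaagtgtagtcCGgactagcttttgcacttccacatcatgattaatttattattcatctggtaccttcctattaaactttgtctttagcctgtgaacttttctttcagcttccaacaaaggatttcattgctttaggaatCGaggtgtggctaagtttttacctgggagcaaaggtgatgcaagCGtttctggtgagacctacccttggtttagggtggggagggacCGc
DSC3 held 18 CG dinucleotides, a number that 36.8% of the 35116 promoters of that length reached, and the median promoter held 11. DSG3 held 4, which 70.7% of promoters reached. Among the other members with an entry, DSP held 33 (8.15% of promoters), DSG2 26 (19.6%), PKP1 17 (39.0%) and DSG1 3 (77.1%). DSC2 and JUP had a pair of entries each, with 12 and 19 for DSC2 and 17 and 13 for JUP, while PKP2 and PKP3 had none listed. No methylation was measured, and the counts describe the letters only.

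The genes that work beside the desmosome are given by group, as counts and medians, with groups chosen when earlier results were known. The counts stand beside backgrounds of 3.61% of all genes higher and 2.2% lower past a log2 difference of 2 in HN4/DDP, and of 8.37% and 2.75% in HN30/DDP. Of 10 accessory genes, which include the plakins PPL and EVPL and the tetraspan protein PERP, none passed a log2 difference of 2 in either line, and the list's median was 0.18 in HN4/DDP and -0.04 in HN30/DDP. CDSN, corneodesmosin, was well above background only in HN4/DDP, with a signal of 39.5 against 16.8 in HN4. Of 11 adherens junction genes, 1 was higher past a log2 difference of 2 in HN4/DDP and 1 higher and 1 lower in HN30/DDP. The median of these genes was 0.21 in HN4/DDP and 0.42 in HN30/DDP. PVRL4 (now NECTIN4), a nectin, was 6.22-fold higher in HN4/DDP and 7.0-fold higher in HN30/DDP, and CDH2, N-cadherin, was 4.83-fold lower in HN30/DDP. CDH1, E-cadherin, differed by 0.58 and 1.34. Of 10 tight junction genes, TJP3 alone passed the threshold, 12.2-fold higher in HN30/DDP, and the list's median was 0.27 in HN4/DDP and 0.02 in HN30/DDP. Of 6 gap junction genes, GJA1 (connexin 43) was 7.50-fold lower in HN4/DDP, and the list's median was -0.265 in HN4/DDP and -0.467 in HN30/DDP. Of 9 hemidesmosome genes, COL17A1, the collagen that anchors basal cells to the basement membrane, was 50.9-fold higher in HN4/DDP and 4.79-fold higher in HN30/DDP, while the median of that list was 0.06 and -0.02.

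The keratins, to which desmosomes attach, reached larger differences than the desmosome genes. Of 13 keratins, 12 were well above background, and in HN4/DDP 5 were higher and 1 lower past a log2 difference of 2, with a list median of 0.96, against backgrounds of 3.61% and 2.2%. KRT16 was 38.1-fold, KRT13 16.6-fold and KRT6A 10.0-fold higher in HN4/DDP, and KRT17 (9.78-fold) and KRT14 (5.04-fold) were higher too. KRT5, the basal partner of KRT14, was 16.6-fold lower there and 3.81-fold lower in HN30/DDP. The second KRT16 probe was not well above background on any array. In HN30/DDP, KRT6A and KRT6B were not well above background and lay at least 183-fold (KRT6A) and 73.8-fold (KRT6B) below HN30. KRT6A and KRT6B are near-identical copies, and whether their probes read each other's transcript was not tested. By the probe of highest mean no keratin was higher past the threshold in HN30/DDP, where the median of the list was -0.82. The second KRT14 probe, not well above background in HN30, gave 15.4 there and 173 in HN30/DDP, a measured difference of 3.38 against 0.22 with the first.

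Proteases of the kallikrein family cut desmosomal cadherins and corneodesmosin when upper skin layers are shed, and SPINK5 encodes an inhibitor of several of them. Of 12 proteases and inhibitors, 4 were higher and 1 lower past a log2 difference of 2 in HN4/DDP, and 3 higher and 0 lower in HN30/DDP. The backgrounds were 3.61% and 2.2% in HN4/DDP, and 8.37% and 2.75% in HN30/DDP, and the list's median was 0.40 and 0.39. KLK8 was 23.8-fold higher in HN4/DDP and 22.9-fold higher in HN30/DDP. KLK7 was not well above background in either parental line and its bounds were at least 34.1-fold higher in HN4/DDP and 19.6-fold in HN30/DDP. KLK5 was at least 74.7-fold higher in HN4/DDP and 4.91-fold higher in HN30/DDP, and KLK6 8.62-fold and 3.66-fold, with smaller differences of 1.92 and 0.79 by its second probe. KLK13 differed by -1.99 in HN30/DDP (3.98-fold lower) and by 0.40 in HN4/DDP, where it was near background, and KLK14 by -0.55 in HN4/DDP and 0.04 in HN30/DDP. SPINK5 was 5.51-fold lower in HN4/DDP and 1.56-fold higher in HN30/DDP, with its second probe on the same side in each line and another probe well above background on only 1 array. Of the 6 kallikreins in the list, KLK5, KLK6, KLK7 and KLK8 were higher in both resistant lines, and KLK13 and KLK14 were not.

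**Figure D5:**
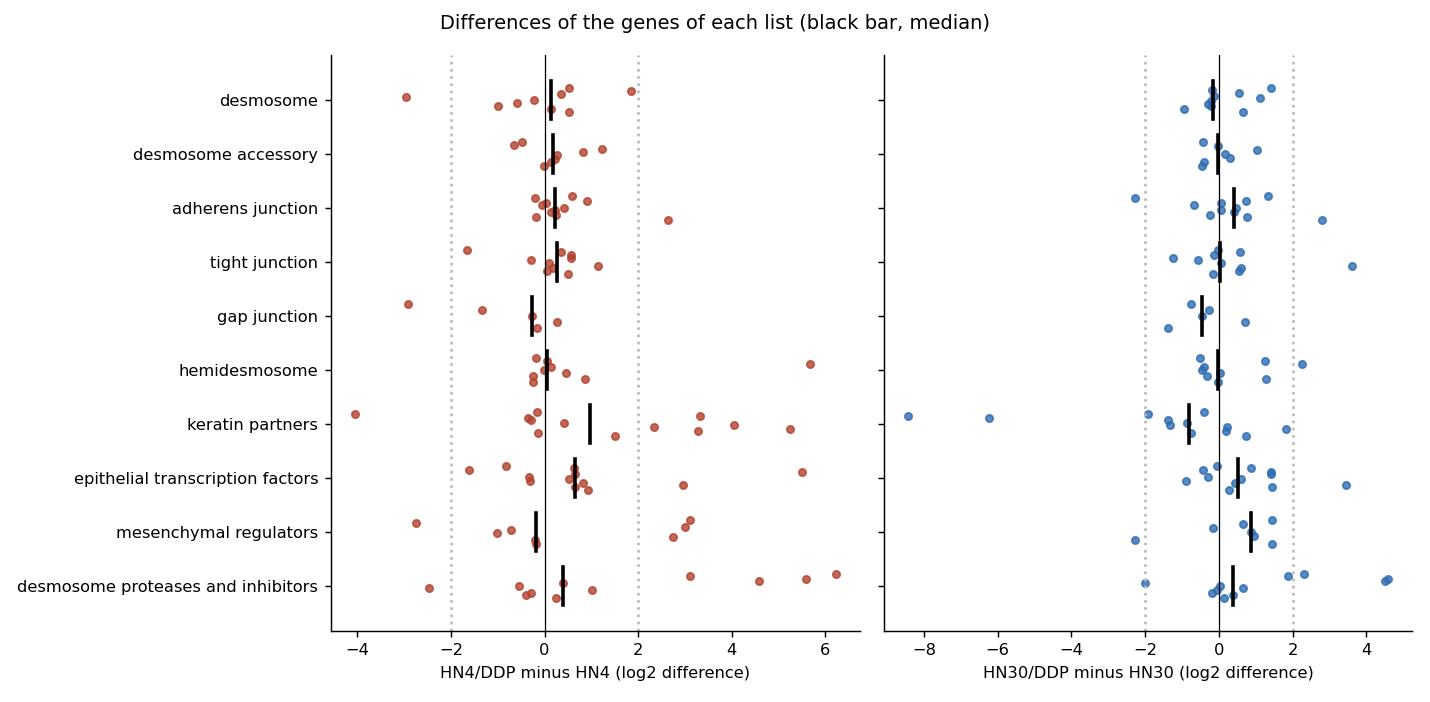
Log2 difference of each gene measured well above background on 1 or both arrays of the pair, by list, for HN4/DDP minus HN4 (left) and HN30/DDP minus HN30 (right; the x axes differ). Black bars are medians and dotted lines mark a difference of 2; genes dim on 1 side are drawn at their measured difference. The desmosome genes span -2.95 to 1.84 on the left, while the keratins reach 5.25 and -4.05 and the proteases 6.22.

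Transcription factors of epithelial identity and of the mesenchymal state were read on the same arrays. Past a log2 difference of 2, the backgrounds were 3.61% higher and 2.2% lower in HN4/DDP, and 8.37% and 2.75% in HN30/DDP. Of 12 epithelial factors, GRHL3 and ZNF750, both of which act in epidermal differentiation, were 45.1-fold and 7.75-fold higher in HN4/DDP, and ZNF750 was 11-fold higher in HN30/DDP. The second GRHL3 probe, for another transcript, was not well above background on any array. GRHL2, a relative of GRHL3, differed by -1.61 in HN4/DDP with its first probe and by -0.77 with its second, and the median of the list was 0.64 in HN4/DDP and 0.51 in HN30/DDP. GRHL3 differed by 1.40 in HN30/DDP, and TP63, the master factor of stratified epithelia, by -0.82 and -0.06. Of 9 mesenchymal genes, SNAI1 (8.57-fold) and VIM (6.74-fold) were higher and SNAI2 (6.70-fold) lower past a log2 difference of 2 in HN4/DDP. ZEB1 had a measured difference of 3.0, but it was not well above background in HN4 and is bounded only at 1.98-fold or more, and its second probe was not well above background on any array. In HN30/DDP the only one past the threshold was CDH2, which was lower. The list's median was -0.19 in HN4/DDP and 0.88 in HN30/DDP. Past a log2 difference of 1 in HN30/DDP, 2 were higher and 1 lower, against backgrounds of 19.8% and 13.3%.

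Over the 13285 genes with an NM accession that were well above background on all arrays, the gene whose 4 levels, centred on their mean, were most like those of DSC3 was HEG1, a membrane protein of the mucin-like kind, at a root mean square distance of 0.125. HEG1 differed by -3.08 in HN4/DDP and 1.30 in HN30/DDP. For DSG3 the nearest gene was RAB11FIP1, a Rab11 effector of recycling endosomes, at 0.059, and for JUP it was TRIM29 at 0.034. The nearest genes were TSG101 for DSG2 (0.011), RNPEP for DSC2 (0.041), CYGB for DSP (0.031), NT5DC1 for PKP1 (0.02), KMT2E for PKP2 (0.041) and AIFM1 for PKP3 (0.02). No member was nearest to another member, which is likely for any few genes among 13285. Every nearest distance lay below the scanner SD of a single level (0.144 for DSG2 in HN4). Which gene was nearest was therefore not resolved. The closest pair was PKP1 and PKP2 at 0.184, and for DSC3 the nearest member was PKP2 at 0.84, in place 473 among all genes. These distances are over 4 arrays and describe likeness on them only.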

How the data were processed

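Members and gene lists were chosen with earlier results of these data known. For every array the authors deposited its scanner file (SurePrint G3 Human v3, Feature Extraction 10.7.1.1 in the submitters' notes), whose intensity values had been background-subtracted and detrended by the software, with low signals replaced by surrogates. The authors also deposited a log2 table with equal column medians (4.65). All 4 arrays lay on 1 slide with 1 scan. Here control and outlier spots were left out, spots of 1 probe averaged, and log2 processed intensity minus the array's 75th percentile taken. A gene was represented by its probe of highest mean. Genes were called past a log2 difference of 2 if well above background on the brighter array. Against a dim array a fold is a bound from the lowest signal well above background. Named genes were all members, up to 3 genes in each direction past 2 in each list and line (further ones were named after their values were seen), pattern neighbours and the chromosome 18 window. Of 14 member probes, 13 matched RefSeq. limma 3.58.1 (R 4.3.3) was tested on simulated data. Alternatives were normexp, quantile and median scaling, deposited values, probe means, a pseudocount of 16, dim signals at their bound and a threshold of 1. The summed leukocyte marker list is not reported here.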

Additional observations from a re-analysis of the deposited data

Results flagged for a closer look

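Among the desmosome genes, the named genes past a log2 difference of 2 in the junction, keratin, regulator and protease lists and the chromosome 18 window, those below differed in opposite directions in the HN4 and HN30 pairs, by more than 2 scanner SDs in each. With 1 array per condition this opposition of the lines was not tested. Values are given first for HN4/DDP and then for HN30/DDP. DSC3 differed by -2.95 and 1.12. KRT13 differed by 4.05 and -1.32, and KRT6A by 3.32 and -8.44, where the HN30/DDP signal was not well above background. SNAI2 differed by -2.75 and 0.65, and SPINK5 by -2.46 and 0.64. DSG1-AS1 differed by 0.76 and -1.85 with 1 of its 2 probes. With median scaling the HN30/DDP differences of SNAI2 (0.25) and SPINK5 (0.24) lay within 2 scanner SDs.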

How the results depend on the processing

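No paired analysis was possible by replicate number because each group holds only replicate 1. The limma fit paired the arrays by line instead, and without that block it also called 0 genes. DSC3 kept its direction under 7 settings, from -3.10 to -1.83 in HN4/DDP and from 0.63 to 1.23 in HN30/DDP, and DSG3 ranged from 1.61 to 1.89 and from 0.15 to 0.55. With normexp correction 0 members were lower past a log2 difference of 2 in HN4/DDP, instead of 1 (DSC3). At a threshold of 1, the members higher numbered 1 in HN4/DDP and 2 in HN30/DDP, instead of 0, where the 2 include DSG1, which has no valid bound. The mean in place of the median turned 0.14 into -0.15 in HN4/DDP and -0.16 into 0.18 in HN30/DDP. In HN30/DDP the median was 0.19 with quantile normalization, 0.19 with the deposited values and -0.56 with median scaling, which moved the median of all genes by -0.12, -0.12 and -0.40. The DSG1 difference in HN30/DDP was 1.40 as measured and -0.26 with dim signals at their bound. DSP and PKP2 in HN30/DDP turned positive (0.28 and 0.10 with quantile normalization, 0.29 and 0.10 with the deposited values), and DSC2 with the mean of its probes (0.10). Of 140 member values under alternatives, 109 moved by less than their scanner SD. In limma 0 genes passed under every setting, and with quantile normalization 1 member, JUP, had an unadjusted p below 0.05. The precision is limited by 1 array per condition.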
